A study of Saccharomyces cerevisiae with 8 samples.

Results

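The histone genes of budding yeast were followed by RNA sequencing through 4 h of tunicamycin in wild-type (WT) and grr1-deficient cells. The set held 10 of the 6696 gene regions counted, and they were chosen by name: HTA1 and HTA2 encode histone H2A, HTB1 and HTB2 encode H2B, HHT1 and HHT2 encode H3, HHF1 and HHF2 encode H4, HTZ1 encodes the H2A variant H2A.Z, and HHO1 encodes the linker histone. Both genotypes were of the W303 background, and the labels call the mutant grr1 deficient without naming its allele. Cultures grew at 30 °C in synthetic complete medium containing 2% glucose. At an OD600 of 0.2 they received 1 µg/ml tunicamycin, which stops sugars from being attached to new secretory proteins and so burdens the endoplasmic reticulum with unfolded protein. RNA was sampled at 0 h and at 4 h, with 2 biological replicates for each of the 4 groups and 8 libraries in all. No 4 h culture without the drug was analysed here, and the effects of 4 h in culture and of tunicamycin cannot be told apart.

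A nucleosome wraps DNA around an octamer of H2A, H2B, H3 and H4, and yeast makes most of its histone messenger RNA in S phase, when new chromatin is assembled. Each core histone has a pair of gene copies, and the copies sit in divergent pairs: an H2A gene shares a promoter region with an H2B gene, and an H3 gene with an H4 gene. Outside S phase the HIR complex, with Asf1 and Rtt106, is known to repress every divergent pair but HTA2-HTB2, and Spt10 and Spt21 activate the histone genes. H2A.Z is placed beside promoters by the SWR1 complex outside replication, and the linker histone Hho1 binds the DNA between nucleosomes. Grr1 is the F-box subunit of a ubiquitin ligase that is known to mark G1 cyclins for destruction.

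The regions between divergent partners are shown here by a known element of histone promoters. The activating element of histone promoters that Spt10 binds was searched as TTCCNNNNNNTTCNC on both strands, in the R64 sequence of RefSeq, and its fixed letters are in capitals below with 7 bases on either side.
HTA1-HTB1, match 1, plus strand, chrIV:915107-915135: agcgctgTTCCaaaattTTCgCctcactg
HTA1-HTB1, match 2, minus strand, chrIV:915130-915158: cactccaTTCCaatagcTTCgCacagtga
HTA2-HTB2, minus strand, chrII:236101-236129: taaggtgTTCCcattatTTCtCaaagtga
HHT1-HHF1, minus strand, chrII:255937-255965: aaaactgTTCCgagcgcTTCtCcccataa
HHT2-HHF2, minus strand, chrXIV:576339-576367: ttgtccgTTCCgagcacTTCgCattaagc
All 4 regions between divergent histone genes held the element, 2 matches between HTA1 and HTB1 and 1 match in each of the others. Those regions ran for 817 bases (HTA1-HTB1, chrIV:914713-915529), 699 (HTA2-HTB2, chrII:235793-236491), 646 (HHT1-HHF1, chrII:255685-256330) and 676 (HHT2-HHF2, chrXIV:576051-576726). Of 534 divergent regions of 500 to 1000 bases in the genome, 42 held it (7.87%). In a window of 250 bases before the start codon none of the 10 histone genes held it, against 82 of 6002 genes (1.37%), since the matches lay 259 to 424 bases from the nearest start codons on either side. The element was chosen because it is known from histone promoters, so its presence there is a description and no independent result. A match describes these letters and not binding, and the R64 reference is of another strain than W303.

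How well the copies can be told apart depends on their sequence, so the stretches of 60 bases where the H2A copies and the H4 copies differ most are printed with the differing bases in capitals.
HTA1, coding bases 337 to 396: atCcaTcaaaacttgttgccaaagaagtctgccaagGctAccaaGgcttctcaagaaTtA
HTA2, coding bases 337 to 396: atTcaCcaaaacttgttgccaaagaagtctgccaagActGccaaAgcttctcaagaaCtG
HHF1, coding bases 163 to 222: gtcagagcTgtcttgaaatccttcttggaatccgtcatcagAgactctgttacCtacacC
HHF2, coding bases 163 to 222: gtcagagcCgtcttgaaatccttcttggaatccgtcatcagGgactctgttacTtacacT
These are the coding strands of chrIV:915866-915925, chrII:235397-235456, chrII:255463-255522 and chrXIV:576889-576948, with 7 differences between the H2A copies and 4 between the H4 copies. Over the whole coding sequence HHF1 and HHF2 differed at 8 of 312 bases (97.4% identity), HTA1 and HTA2 at 25 of 399 (93.7%), HHT1 and HHT2 at 28 of 411 (93.2%), and HTB1 and HTB2 at 48 of 396 (87.9%). The longest identical run was 80 bases in the H4 copies, 74 in the H3 copies, 65 in the H2A copies and 35 in the H2B copies, and counted reads were 25 to 100 nt long. The sources used here do not give the treatment of reads that match both copies, so the split between copies is uncertain to that extent. Reads in the 3′ untranslated regions, which lie outside the coding sequences compared here, are given beside the copy comparisons, and whether the copies differ there was not tested.

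Between 4885844 and 12380049 reads per library fell in genes, and the core histone genes took 0.102% to 0.328% of them. Each histone gene had between 183 and 8878 reads in every library, and all 10 passed the filter on low counts that kept 5855 genes. GRR1 itself had 1179 to 1829 reads in the WT libraries and 2 to 12 in the grr1-deficient ones. The second grr1-deficient replicate differed from the rest at both times: genes of the mitochondrial genome took 0.386% and 0.766% of its reads, against 10.8% and 13.4% in replicate 1 and 1.72% to 5.03% in WT. Transcripts specific to MATa cells summed to 301 to 1106 CPM (counts scaled to all gene reads, without TMM) and those of MATalpha cells to 8.09 to 57.7 CPM, over lists of 6 and 4 genes. In WT 5 of 6 MATa-specific genes fell between 0 h and 4 h (median log2 −2.07) and 4 of 5 meiosis entry genes rose (1.67); in grr1-deficient cells 0 of 6 and 1 of 5 passed the edgeR test (0 of 6 MATa-specific genes also at an unadjusted p of 0.05 and with DESeq2). Of 3 MATalpha-specific genes tested 1 rose in WT and 2 rose in grr1-deficient cells. Over all 5855 genes tested 1905 rose and 1936 fell in WT, and 1259 rose and 1437 fell in grr1-deficient cells. Between the strains 1316 were higher and 1595 lower in grr1-deficient cells at 0 h, and 1008 and 828 at 4 h. The responses differed between the strains, as interaction calls, in 4 of the 6 MATa-specific genes, all higher in grr1-deficient cells. Over all genes 37.3% passed that test. Untreated grr1-deficient cells had lower MFA2 (−3.77 ± 0.27), BAR1 (−2.50 ± 0.34) and STE2 (−1.94 ± 0.15) than untreated WT, 3 of the 6 MATa-specific genes. MATalpha-specific STE3 (2.04 ± 0.36, 1 of 3) and the meiosis genes IME2 (1.39 ± 0.19) and NDT80 (0.93 ± 0.32, 2 of 5) were higher in the same comparison. After 4 h 2 of 6 MATa-specific and 1 of 3 MATalpha-specific genes were higher in grr1-deficient cells, and the part of cell type or cell cycle stage in the histone results was not tested. In bulk RNA, fewer cells in S phase and less histone RNA per cell cannot be told apart.

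In untreated WT cells H4 transcripts were the most abundant per length and those of the variants the least. On the RPKM scale (gene reads scaled by TMM library size and by countable length), HHF2 stood at 1765 ± 182 (mean ± SD, n = 2) and HHF1 at 1352 ± 88.0. HTA1 followed at 1009.7 ± 0.587, HHT2 at 669 ± 10.5, HTA2 at 593 ± 73.0 and HHT1 at 511 ± 118. HTB1 at 200.4 ± 3.08 and HTB2 at 194 ± 8.04 were lower, and HTZ1 at 86.2 ± 3.92 and HHO1 at 77.3 ± 8.72 were lowest. The replicate ranges of HTA2 and HHT1 overlapped, as did those of HTB1 and HTB2 and those of HTZ1 and HHO1, while the other neighbours in this order were apart. Summed over both copies, H4 reached 3117 ± 270.4 RPKM, H2A 1603 ± 72.5, H3 1180.1 ± 128.5 and H2B 394 ± 11.1. These levels use countable lengths that include untranslated regions, so the order of genes depends on the annotation. HHT1 and HHT2 each have 411 coding bases but 981 and 737 countable ones. HHT1 had more coding reads in untreated WT, 5200 and 3840 against 3745 and 3267. HTB2 likewise had more than HTB1 over 396 coding bases each, 1732 and 1828 against 1149 and 1246.

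**Figure D1:**
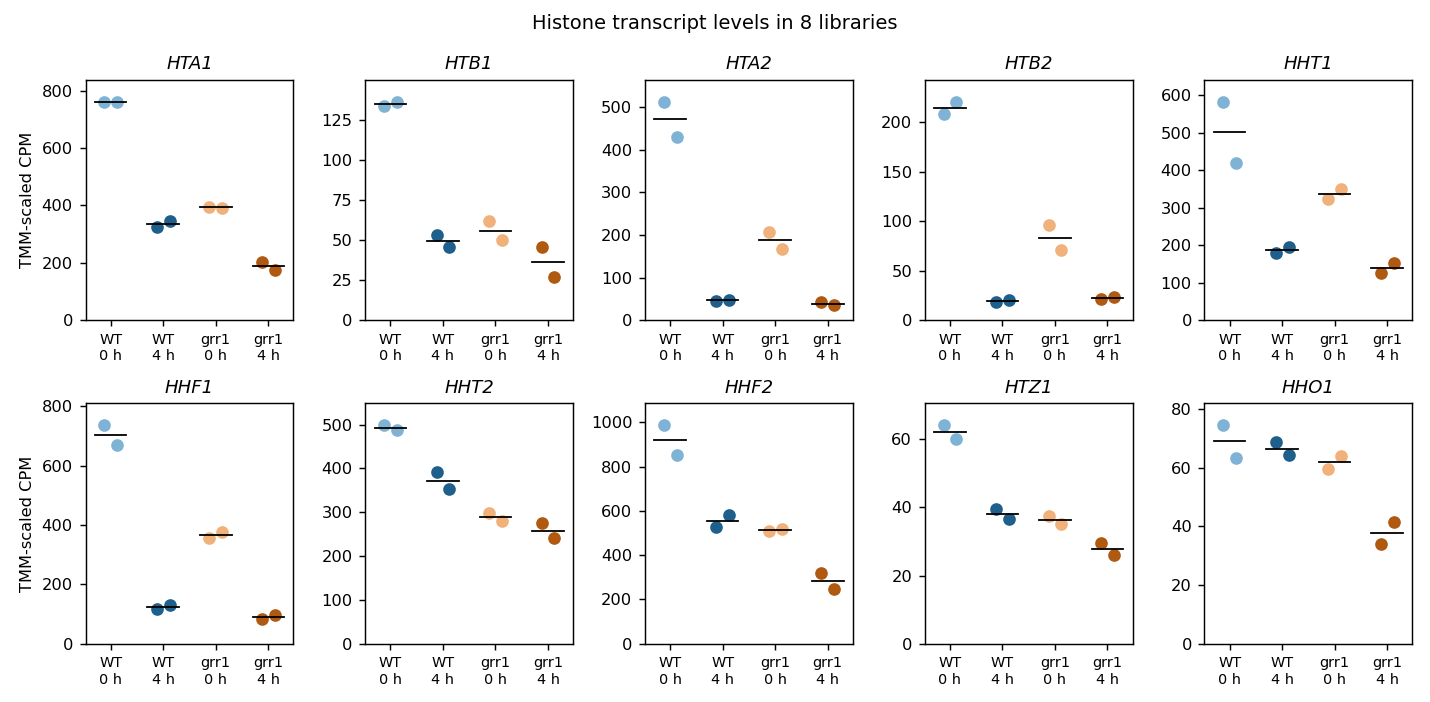
Level of each histone transcript in the 8 libraries, in TMM-scaled CPM on a linear axis from 0; points are libraries, lines are the means of 2, and each panel has its own scale. The 8 core genes and HTZ1 were highest in WT at 0 h, and HTA2, HTB2 and HHF1 fell by the largest folds at 4 h. HHO1 was lowest in grr1-deficient cells at 4 h (34.0 and 41.4 CPM).

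The first comparison asked how histone transcripts changed in WT cells after 4 h of tunicamycin. HTA2 and HTB2, the divergent H2A and H2B pair on chromosome II, fell furthest. HTB2 was at 208 and 221 CPM at 0 h, and at 18.2 and 20.1 CPM at 4 h, a level 11.2-fold lower. HTA2 was at 514 and 431 CPM at 0 h and at 45.2 and 46.9 CPM at 4 h, 10.3-fold lower. The libraries of the times did not overlap in either gene, and the log2 changes of −3.49 ± 0.17 (± SE) and −3.36 ± 0.17 passed the edgeR test (adjusted p = 9.07e-07 and 9.74e-07). Here and below, overlap only describes the libraries. The share of all genes whose groups do not overlap was not computed. With so few libraries per group, genes without a change can also separate by chance.

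The H3 and H4 genes on the same chromosome also fell, and HHF1 more than its divergent partner HHT1. HHF1 was at 737 and 672 CPM before and at 117 and 131 CPM after 4 h (log2 −2.50 ± 0.14, edgeR adjusted p = 1.46e-06). HHT1 was at 583 and 419.7 CPM before and at 178 and 195 CPM after (−1.42 ± 0.18, adjusted p = 0.000155). Neither gene overlapped between the times, and the untreated replicates of HHT1 were the more widely spread.

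The pairs on chromosomes IV and XIV changed less. HTA1 was at 762 and 763 CPM at 0 h and at 325 and 345 CPM at 4 h (−1.19 ± 0.13, edgeR adjusted p = 7.66e-05). HTB1, its divergent partner, was at 133 and 136 CPM and then at 53.0 and 45.8 CPM (−1.45 ± 0.24, adjusted p = 0.000836). Both H2A and H2B genes of this pair were therefore lower in each treated library than in each untreated one. HHF2, the H4 gene on chromosome XIV, was at 987 and 852 CPM and then at 529 and 580.0 CPM (−0.73 ± 0.17, adjusted p = 0.00542). HHT2, its divergent H3 partner, was at 498 and 487 CPM and then at 392 and 353 CPM (−0.41 ± 0.13, adjusted p = 0.0231). The times did not overlap in HHF2 or HHT2, and HHT2 had the smallest change of the core genes.

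The variant HTZ1 was at 64.1 and 60.1 CPM before and at 39.6 and 36.8 CPM after tunicamycin, with no overlap (−0.70 ± 0.12, edgeR adjusted p = 0.00112). HHO1 was at 74.5 and 63.5 CPM before and at 68.6 and 64.4 CPM after, and the groups overlapped. Its change of −0.05 ± 0.14 did not pass (adjusted p = 0.763).

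In all, 9 of 10 histone genes were called lower in WT, where 33.1% of the 5855 genes tested were called lower. The median log2 change was −1.31 over the histone genes and 0.03 over all genes. Scaling by total gene reads in place of TMM raised the median of all genes to 0.78 and moved the split of calls from 1905 higher and 1936 lower to 3340 higher and 957 lower. On that scale HTB2 (−2.74), HTA2 (−2.61), HHF1 (−1.76), HTB1 (−0.70), HHT1 (−0.68) and HTA1 (−0.44) were still called lower. HHT2 (0.34), HHF2 (0.02) and HTZ1 (0.04) turned to positive values that did not pass, and HHO1 was called higher (0.70, edgeR adjusted p = 0.00513). The call of HHT2 was also lost without the mitochondrial genome (adjusted p = 0.0692) and without any of the 4 WT libraries in turn (0.0644 to 0.173), and that of HHF2 without replicate 1 at 4 h (0.0559). With reads of the 3′ untranslated region alone neither passed (−0.55, adjusted p = 0.0969 for HHT2, and −0.71, 0.118 for HHF2). In the authors' deposited table the same contrast gave −3.50 for HTB2, −3.37 for HTA2 and −0.42 for HHT2.

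After 4 h the order of the WT levels per length had changed. HHF2 stood at 1064 ± 69.6 RPKM, HHT2 at 505 ± 37.4, HTA1 at 444 ± 19.1, HHF1 at 239 ± 18.8 and HHT1 at 190.5 ± 12.1. HHO1 at 74.6 ± 3.34 and HTB1 at 73.3 ± 7.56 came next and overlapped, and HTA2 at 57.8 ± 1.52 and HTZ1 at 53.0 ± 2.82 were below them. This order rests on the countable lengths, which hold no 3′ region for HHO1. HHO1 had 687 and 668 reads on 777 coding bases, against 511 and 468 on 396 for HTB1. HTA2 had 402 and 429 on 399. Per coding base HTB1 and HTA2 thus lay above HHO1. HHT1, with 1882 and 2137 on 411, also lay above HHF1, with 1113 and 1285 on 312. HTB2 was lowest at 17.3 ± 1.22 RPKM, below both variants that it had exceeded at 0 h. Core histone transcripts took 0.306% and 0.328% of gene reads before the drug in WT, and 0.213% and 0.215% after it.

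**Figure D2:**
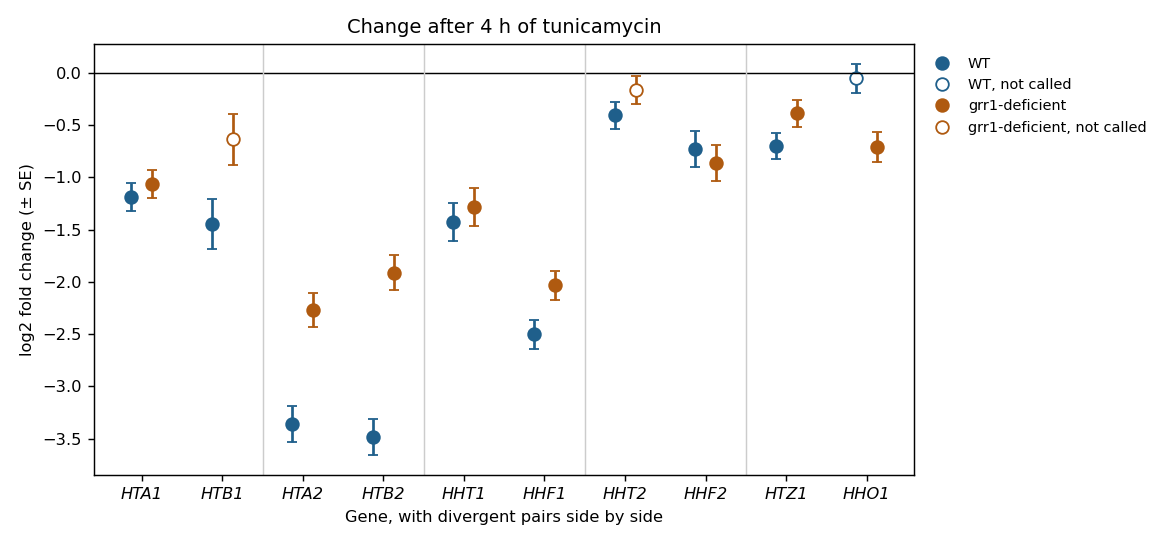
Log2 fold change at 4 h against 0 h for each histone gene in WT (blue) and grr1-deficient (orange) cells, with divergent partners side by side; bars are ± SE and open circles did not pass the edgeR test at an adjusted p of 0.05. The HTA2-HTB2 pair lies lowest in WT at −3.36 and −3.49, and HHT2 in grr1-deficient cells and HHO1 in WT lie nearest to 0.

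The copies of each histone differed in how far their levels moved, and in every treated library the genes on chromosome II supplied a smaller share of the transcripts than in any untreated library. The ratio of copies within a library needs no scaling between libraries. HTA1 supplied 59.7% and 63.9% of H2A reads in the untreated WT libraries and 87.8% and 88.0% in the treated ones. In grr1-deficient cells its share was 65.7% and 70.1% at 0 h and 82.6% and 83.3% at 4 h. In every treated library of either genotype HTA1 held a larger share than in any untreated library.

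For H2B the copy with the larger share at 4 h was HTB1. It gave 39.0% and 38.2% of H2B reads in WT at 0 h, and 74.4% and 69.5% at 4 h. In grr1-deficient cells it gave 39.3% and 41.4% at 0 h, and 68.4% and 53.6% at 4 h. Replicate 2 of the treated grr1-deficient cells was the lowest treated library, and it still lay above all 4 untreated ones. Among the H3 genes HHT1 gave 53.9% and 46.3% of reads in WT at 0 h and 31.3% and 35.6% at 4 h. In grr1-deficient cells HHT1 gave 52.2% and 55.5% at 0 h and 31.3% and 38.7% at 4 h. The share of HHT1 was thus lower in each treated library than in each untreated one. HHF1 gave 42.7% and 44.1% of H4 reads in WT at 0 h and 18.2% and 18.5% at 4 h. In grr1-deficient cells HHF1 gave 41.1% and 42.0% at 0 h and 20.5% and 28.0% at 4 h. Here too the treated libraries lay below the untreated ones without overlap.

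**Figure D3:**
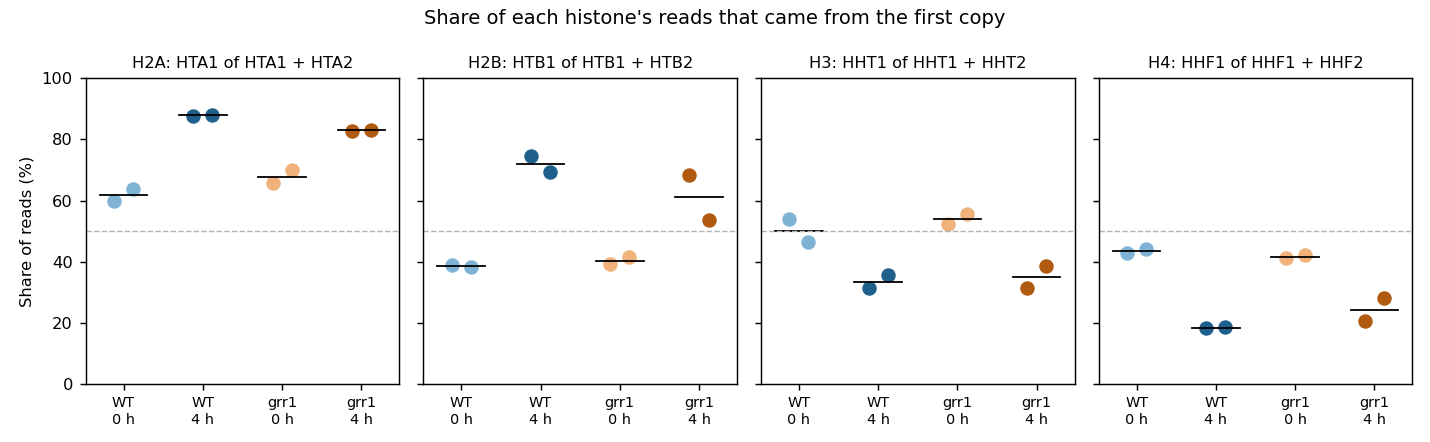
Share of reads of each core histone that came from the first copy (HTA1, HTB1, HHT1, HHF1), in percent of the reads of both copies, for the 8 libraries; points are libraries, lines are means of 2 and the dashed line marks an equal split. The shares of HTA1 and HTB1 were higher at 4 h in both genotypes (means of 61.8% and 87.9% for HTA1 in WT), and those of HHT1 and HHF1 were lower (43.4% and 18.3% for HHF1 in WT).

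On the log2 scale the HTA1/HTA2 ratio was higher by 1.68 over the 4 libraries at 4 h than over the 4 at 0 h, and HTB1/HTB2 by 1.63. HHT1/HHT2 was lower, with a difference of −1.06, and HHF1/HHF2 with −1.47. Each of these had a two-sided exact permutation p = 0.0286, the smallest that 4 libraries against 4 allow, and an adjusted p = 0.0762 over the 16 ratios tested, which does not pass 0.05. A lower adjusted p would have needed more of the 16 ratios at that smallest p, whatever the size of these differences. The differences were of one sign in each genotype: 2.16 in WT and 1.20 in grr1-deficient cells for HTA1/HTA2, 2.03 and 1.23 for HTB1/HTB2, −0.999 and −1.12 for HHT1/HHT2, and −1.77 and −1.16 for HHF1/HHF2. The largest SD within a group was 0.64, for HTB1/HTB2. With reads of the 3′ untranslated regions alone the differences were 1.56 for HTA1/HTA2, −1.21 for HHT1/HHT2 and −1.23 for HHF1/HHF2. HTB1 had too few such reads to be compared. The first 2 of these rest on few reads as well. At 4 h HTA2 had 17 and 9 in WT and 5 and 7 in grr1-deficient cells. HHT1 had 13 and 15, and 5 and 15.

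Divergent partners were compared in the same way. The ratio HTA1/HTB1 differed by −0.07 between 4 h and 0 h (two-sided exact permutation p = 0.80) and HTA2/HTB2 by −0.12 (exact permutation p = 0.600), on the log2 scale. For both, the WT and the grr1-deficient differences had opposite signs: 0.27 and −0.40 for HTA1/HTB1, and 0.13 and −0.37 for HTA2/HTB2. The ratios of H3 genes to their H4 partners were higher at 4 h without passing the adjusted threshold. HHT1/HHF1 was higher at 4 h by 0.92 and HHT2/HHF2 by 0.51, each with an exact permutation p = 0.0286 and an adjusted p = 0.0762, under the limit given above. The genotype differences of all 8 ratios, averaged over both times, had exact permutation p-values of 0.257 or more, but some averages joined opposite signs. These tests shuffled libraries across both times, so the differences between times entered their spread. They therefore cannot decide on genotype differences of the size seen. At 0 h and at 4 h the grr1-deficient minus WT differences were 0.38 and −0.58 for HTA1/HTA2, 0.10 and −0.70 for HTB1/HTB2, −0.11 and 0.50 for HHF1/HHF2, and 0.22 and 0.09 for HHT1/HHT2. For the divergent pairs they were 0.33 and −0.34 (HTA1/HTB1), 0.05 and −0.46 (HTA2/HTB2), 0.39 and 0.04 (HHT1/HHF1) and 0.06 and 0.45 (HHT2/HHF2), and the times were not tested apart.

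Across the 8 libraries HTA2 and HTB2 followed each other closely in log2 CPM (Pearson r = 0.99), as did HHT1 and HHF1 (0.99), HTA1 and HTB1 (0.94) and HHT2 and HHF2 (0.91). HTA2 followed HHF1 (0.99), a gene of another divergent pair on chromosome II, more closely than its own copy HTA1 (0.91). HHT2 and HTB2 were the least alike of the core genes (0.59). These values describe libraries that share their groups, and 2 time points and 2 genotypes lie behind them.

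In grr1-deficient cells 8 of 10 histone genes were called lower after 4 h of tunicamycin, where 24.5% of all genes tested were. The median was −0.96 over the histone genes and 0.04 over all genes. HTA2 was at 207 and 167.5 CPM at 0 h and at 42.4 and 35.2 CPM at 4 h (log2 −2.27 ± 0.16, edgeR adjusted p = 0.000105). HHF1 was at 356 and 376 CPM and then at 82.9 and 95.7 CPM (−2.03 ± 0.14, adjusted p = 0.000105). HTB2 was at 95.8 and 70.4 CPM and then at 21.1 and 23.0 CPM (−1.91 ± 0.17, adjusted p = 0.000136). The treated libraries lay below the untreated ones in all 3 genes, which were also the 3 that fell furthest in WT.

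HHT1 was at 324 and 349 CPM at 0 h and at 126 and 151 CPM at 4 h (−1.28 ± 0.18, edgeR adjusted p = 0.000736). HTA1 was at 395 and 392 CPM and then at 202 and 175 CPM (−1.06 ± 0.13, adjusted p = 0.000453). HHF2 was at 509.9 and 518 CPM and then at 321 and 246 CPM (−0.86 ± 0.17, adjusted p = 0.00429). None of these genes overlapped between the times, which is a description without a background over all genes. HTB1 was at 62.0 and 49.7 CPM at 0 h and at 45.9 and 26.6 CPM at 4 h, with a difference of −0.64 ± 0.24 that did not pass (adjusted p = 0.0618). It passed with DESeq2 (−0.66, adjusted p = 0.0353), without replicate 1 of the treated cells (−1.08, edgeR 0.00258) and without replicate 2 at both times (−0.46, 0.0115). HHT2 was at 298 and 279.9 CPM and then at 275 and 240.3 CPM, lower in each treated library, with a difference of −0.16 ± 0.13 (adjusted p = 0.329).

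HTZ1 was at 37.4 and 35.1 CPM at 0 h and at 29.5 and 26.1 CPM at 4 h (−0.39 ± 0.13, edgeR adjusted p = 0.0373). That call was lost with DESeq2 (0.0770), with total counts (0.135), with the 4 grr1-deficient libraries alone (0.140) and on leaving out any of 6 libraries in turn, namely the 4 WT libraries, untreated replicate 1 and treated replicate 2 (0.0585 to 0.134). HHO1 was at 59.6 and 64.05 CPM and then at 34.0 and 41.4 CPM (−0.71 ± 0.14, adjusted p = 0.00445). Unlike in WT, the groups of HHO1 did not overlap.

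The difference between these responses was tested as an interaction, and 3 of 10 histone genes passed, where 37.3% of all genes did. HTB2 fell less in grr1-deficient cells than in WT by 1.57 ± 0.23 on the log2 scale (edgeR adjusted p = 0.00130), and HTA2 by 1.09 ± 0.22 (adjusted p = 0.00652). HHO1 went the other way, with a difference of −0.66 ± 0.20 (adjusted p = 0.0329). The median was 0.28 over the histone genes and 0.03 over all genes. HTB1 had the next largest difference, 0.81 ± 0.34, which did not pass (adjusted p = 0.0939) but did without replicate 2 of treated grr1-deficient cells (1.18, 0.00503) and without that replicate at both times (1.02, 4.02e-05). HHF1 followed at 0.47 ± 0.19 (adjusted p = 0.0841). For the other 5 the differences lay between −0.13 and 0.32.

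The share of histone genes called was thus not above that of all genes. Total-count scaling moved the median of all genes to −0.65 and the split of calls from 1166 higher and 1016 lower to 451 higher and 2486 lower. On it HTB2 stayed higher (0.90, edgeR adjusted p = 0.00632), HTA2 lost its call (0.41, adjusted p = 0.139), as it did with 3′ untranslated reads (0.70, 0.566), and HHO1 (−1.36) and HHF2 (−0.82) were called lower. HTA1, HHT1, HHT2, HHF1 and HTZ1 changed sign without passing, from −0.23 to −0.56. HTB2 passed without each library in turn (1.37 to 1.84) and without replicate 2 of the grr1-deficient strain at both times (1.32). HTA2 did so as well (0.94 to 1.27, and 1.08). The call of HHO1 was lost with DESeq2 (adjusted p = 0.0612) and on leaving out any of the 4 WT libraries, replicate 1 of treated or replicate 2 of untreated grr1-deficient cells (0.0515 to 0.151).

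The untreated strains were compared to see whether histone transcripts differed before the drug. In grr1-deficient cells 9 of 10 were called lower than in WT at 0 h, where 27.2% of all genes tested were. Markers of MATa cells and of meiosis differed in the same comparison, as given above, and their part in it was not tested. The median was −0.89 over the histone genes and −0.06 over all genes. HTB2 differed by −1.37 ± 0.16 (edgeR adjusted p = 0.000362), HTA2 by −1.34 ± 0.16 (adjusted p = 0.000393) and HTB1 by −1.27 ± 0.24 (adjusted p = 0.00315). The H2B and H2A genes other than HTA1 were thus between 2.41-fold and 2.58-fold lower, and HTA1 was 1.94-fold lower (−0.95 ± 0.13).

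HHF1 (−0.95 ± 0.13), HHF2 (−0.84 ± 0.17), HTZ1 (−0.78 ± 0.13), HHT2 (−0.77 ± 0.13) and HHT1 (−0.58 ± 0.18) were also lower. For HHT1 the adjusted p was 0.0265, and the call was lost without any of 5 libraries in turn, namely WT replicate 1 at 0 h (0.199), both WT libraries at 4 h (0.0508 and 0.0503) and both untreated grr1-deficient libraries (0.0761 and 0.0527). It was also lost with total counts (0.523), without the mitochondrial genome (0.0597) and with the 4 untreated libraries alone (0.100). HHO1 was at 63.5 and 74.5 CPM in WT and at 59.6 and 64.05 CPM in grr1-deficient cells, which overlap (−0.16 ± 0.14, edgeR adjusted p = 0.379).

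Total-count scaling raised the median of all genes at 0 h to 0.34 and changed the split from 1316 higher and 1595 lower to 2106 higher and 646 lower. With it 5 histone genes were called lower, HTA1, HTA2, HTB1, HTB2 and HHF1, and HHO1 turned positive (0.26, edgeR adjusted p = 0.247). Core histone transcripts took 0.206% and 0.241% of gene reads in untreated grr1-deficient cells, below both untreated WT libraries. The copy balance was compared as well: the ratio of copies differed between the untreated strains by 0.38, 0.10, 0.22 and −0.11 on the log2 scale for H2A, H2B, H3 and H4, against 2.16, 2.03, −0.999 and −1.77 between treated and untreated WT. Both sets of differences share the untreated WT libraries and were not tested against each other.

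**Figure D4:**
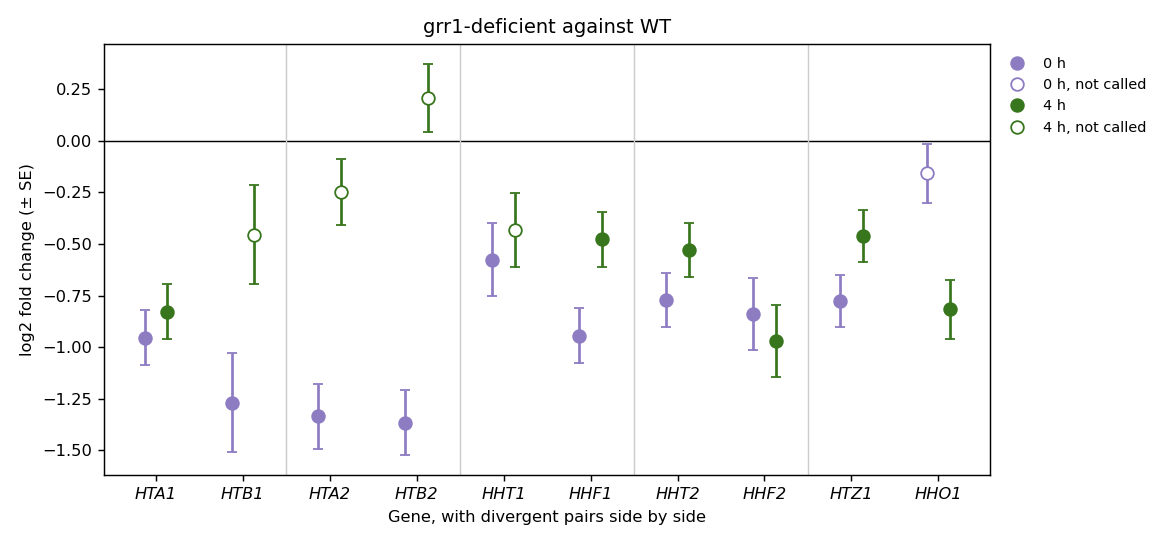
Log2 fold change of grr1-deficient against WT cells at 0 h (purple) and after 4 h of tunicamycin (green) for each histone gene; bars are ± SE and open circles did not pass the edgeR test at an adjusted p of 0.05. At 0 h the values run from −1.37 for HTB2 to −0.16 for HHO1, and at 4 h from −0.97 for HHF2 to 0.21 for HTB2.

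After 4 h of tunicamycin 6 of 10 histone genes were lower in grr1-deficient cells than in treated WT cells, where 14.1% of all genes were called lower. The median was −0.47 over the histone genes and −0.00 over all genes. HHF2 differed most, by −0.97 ± 0.17 (edgeR adjusted p = 0.00495), then HTA1 by −0.83 ± 0.13 (adjusted p = 0.00299) and HHO1 by −0.82 ± 0.14 (adjusted p = 0.00441). HHT2 (−0.53 ± 0.13, adjusted p = 0.0185), HHF1 (−0.48 ± 0.13, 0.0290) and HTZ1 (−0.46 ± 0.13, 0.0269) also passed. The call of HHF2 was lost without WT replicate 2 at 4 h (adjusted p = 0.0557). That of HHT2 was lost without either treated WT library (0.152 and 0.0808) or treated grr1-deficient replicate 2 (0.100). That of HHF1 was lost without any WT library (0.0531 to 0.207) or treated grr1-deficient replicate 1 (0.102). That of HTZ1 was lost without any WT library (0.0541 to 0.167), without treated grr1-deficient replicate 2 (0.120) and with the 4 treated libraries alone (0.0541).

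The HTA2-HTB2 pair, with the largest genotype differences at 0 h, did not pass at 4 h. HTB2 was at 18.2 and 20.1 CPM in treated WT and at 21.1 and 23.0 CPM in treated grr1-deficient cells (0.21 ± 0.17, edgeR adjusted p = 0.367). HTA2 was at 45.2 and 46.9 CPM and at 42.4 and 35.2 CPM (−0.25 ± 0.16, adjusted p = 0.260). HTB1 (−0.45 ± 0.24, adjusted p = 0.178) and HHT1 (−0.43 ± 0.18, adjusted p = 0.0968) did not pass either, but HTB1 did without replicate 1 of treated grr1-deficient cells (−0.90, 0.00736) and HHT1 without replicate 2 of that strain at both times (−0.58, 0.0338). With the drug, HTB2 was the one gene of the set with a higher mean in grr1-deficient cells, and under total counts its value was −0.07.

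Total-count scaling moved the median of all genes at 4 h to −0.28 and the split from 1008 higher and 828 lower to 562 higher and 1620 lower, and called 9 histone genes lower. Without replicate 1 of treated WT 3 histone genes passed, and without replicate 2 of treated WT 2 did, where the single WT library left was assumed to vary like the other groups. Over all genes those fits called 588 and 553 genes against 1836. Core histone transcripts took 0.118% and 0.102% of gene reads in treated grr1-deficient cells, the lowest of the 4 groups.

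The ratios of the variant and the linker gene to the core genes were higher at 4 h than at 0 h in each genotype, and they were not tested. On the per-length scale HTZ1 amounted to 5.38% of HTA1 and HTA2 together in each untreated WT library, and to 11.3% and 9.88% in the treated ones. In grr1-deficient cells it amounted to 6.62% and 6.68% at 0 h and to 12.7% and 13.1% at 4 h. The 4 treated libraries thus lay above the 4 untreated ones, and grr1-deficient cells lay above WT at each time. HHO1 amounted to 1.26% and 1.19% of the 8 core genes in untreated WT and to 3.03% and 2.73% in treated WT. In grr1-deficient cells it was 1.99% and 2.16% at 0 h and 2.26% and 3.15% at 4 h. These are ratios of transcripts within a library, which scaling between libraries leaves as they are. Their size depends on the countable lengths used, which hold no 3′ region for HHO1.

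**Figure D5:**
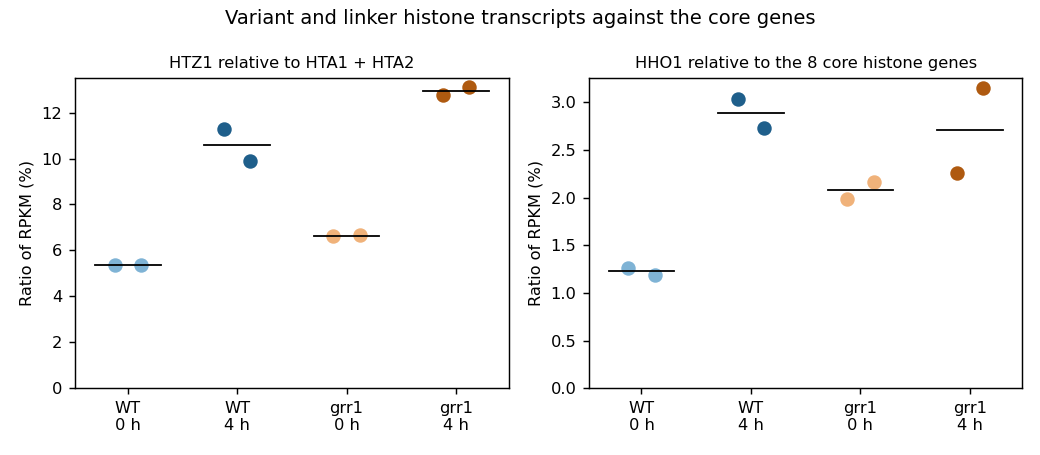
HTZ1 as a percentage of HTA1 plus HTA2 (left) and HHO1 as a percentage of the 8 core histone genes (right), both from RPKM in the same library, on axes from 0; points are libraries and lines are means of 2. HTZ1 lay between 5.38% and 6.68% in untreated and between 9.88% and 13.1% in treated libraries, and HHO1 between 1.19% and 2.16% and between 2.26% and 3.15%.

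Genes known to act on histone transcripts were counted from lists picked by function. For all the lists below, the counts over all 5855 genes are the background. Of these 1905 rose and 1936 fell in WT, and 1259 rose and 1437 fell in grr1-deficient cells. At 0 h 1316 were higher and 1595 lower in grr1-deficient cells than in WT, and at 4 h 1008 and 828. No list was tested against that background. Of 6 repressors 2 rose and 3 fell in WT (median log2 −0.19), and 1 rose and 1 fell in grr1-deficient cells (−0.05). HIR1, a HIR subunit, rose by 0.70 ± 0.12 in WT (edgeR adjusted p = 0.000778) and by 0.46 ± 0.12 in grr1-deficient cells (0.0134). HIR2, another subunit, fell in WT by 0.75 ± 0.20 (adjusted p = 0.00901), a change that total counts put at −0.00. ASF1, the chaperone that works with HIR, was lower after 4 h in both strains. It changed by −0.66 ± 0.16 in WT (adjusted p = 0.00584) and by −0.72 ± 0.17 in grr1-deficient cells (0.00845), with an interaction of −0.05 (0.878). It was lower in grr1-deficient cells than in WT by −0.48 ± 0.16 at 0 h (0.0382) and −0.53 ± 0.16 at 4 h (0.0398). The 0 h call was lost under total counts (−0.08, 0.754). Of the 6, 2 were called lower in grr1-deficient cells than in WT at each time by edgeR, and 0 by DESeq2. Under total counts the WT calls of the repressors became 3 higher and 0 lower (median 0.56), and those of the strains 1 higher at 0 h and 4 lower at 4 h.

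Of 7 activators 0 rose and 2 fell in WT (median −0.07), and 1 rose and 1 fell in grr1-deficient cells (0.04). SPT21, which works with Spt10 at histone promoters, fell by 0.81 ± 0.13 in WT (edgeR adjusted p = 0.000579) and by 0.48 ± 0.13 in grr1-deficient cells (0.0178). It was also lower in grr1-deficient cells at 0 h (−0.59 ± 0.13, adjusted p = 0.00600). Under total counts none of the SPT21 calls was kept, and the WT calls of the activators became 5 higher and 0 lower (median 0.67). YTA7, a chromatin boundary ATPase that acts at histone genes, rose in grr1-deficient cells by 0.65 ± 0.14 (adjusted p = 0.00557). In the interaction test with TMM 0 of the 6 repressors and 0 of the 7 activators passed by edgeR or DESeq2, and 0 and 1 had an unadjusted edgeR p under 0.05. Total counts called 4 of each list lower in the interaction (medians −0.74 and −0.59).

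Of 19 S-phase and DNA synthesis genes 3 rose and 10 fell in WT (median −0.50), and 0 rose and 9 fell in grr1-deficient cells (−0.37). CLB6, an S-phase cyclin gene, had the largest fall of the list in both (−2.57 ± 0.33 in WT, edgeR adjusted p = 0.000176, and −1.69 ± 0.33 in grr1-deficient cells, 0.00354). CLN1, a G1 cyclin gene, rose in WT by 0.78 ± 0.12 (0.000463). At 0 h 9 of the 19 were lower in grr1-deficient cells and 1 higher (median −0.41), and at 4 h 8 lower and 2 higher (−0.24). PRI2, a primase subunit gene, was the highest of them at both times (1.00 ± 0.14 and 1.11 ± 0.14). Under total counts the WT calls of this list became 9 higher and 3 lower (median 0.24), so its direction depends on the scaling. The genotype calls became 1 higher and 1 lower at 0 h (median −0.0072), and 1 higher and 12 lower at 4 h (−0.52).

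Among 12 of 14 histone chaperone and assembly genes that were tested, 0 rose and 6 fell in WT (median −0.21), and 1 rose and 3 fell in grr1-deficient cells (−0.05). KAP123, the importin that carries new histones into the nucleus, changed by −2.19 ± 0.17 in WT (edgeR adjusted p = 7.98e-06). In grr1-deficient cells it changed by −0.58 ± 0.16 (0.0187), with an interaction of 1.61 ± 0.23 (0.00124). KAP123 was also lower in untreated grr1-deficient than in untreated WT cells (−1.34 ± 0.17, adjusted p = 0.000451). At 0 h 8 of the 12 were lower in grr1-deficient cells, and NAP1, a chaperone of H2A and H2B, was higher at 0 h (0.68 ± 0.14) and at 4 h (0.73 ± 0.14). Of 13 SWR1 complex genes, whose products exchange H2A for H2A.Z, 4 rose and 3 fell in WT (median 0.29), and 1 rose and 2 fell in grr1-deficient cells (0.14). RVB1, a helicase shared by several remodelling complexes, fell by 1.60 ± 0.11 in WT and by 0.77 ± 0.11 in grr1-deficient cells (adjusted p = 4.37e-06 and 0.000744). Under total counts 7 of the chaperone genes and 9 of the SWR1 genes were called higher in WT and 2 of each lower. On that scale 1 chaperone gene was higher and 2 were lower in grr1-deficient cells at 0 h (median −0.10).

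Of 20 genes for histone-modifying enzymes 4 rose and 12 fell in WT (median −0.60), and 1 rose and 7 fell in grr1-deficient cells (−0.15). SAS3, an H3 acetyltransferase gene, fell by 1.53 ± 0.16 in WT (edgeR adjusted p = 5.16e-05), and LGE1, which acts in H2B ubiquitination, rose by 1.20 ± 0.32 (0.00929). In untreated grr1-deficient cells 8 were lower than in WT and 0 higher, led by the deacetylase gene SIR2 (−1.07 ± 0.19, adjusted p = 0.00232). Of 10 genes for turnover of excess histones and of histone transcripts 2 rose and 5 fell in WT (median −0.59), and 0 rose and 3 fell in grr1-deficient cells (0.10). UBC5, a ubiquitin-conjugating enzyme gene, rose by 2.61 ± 0.26 in WT (3.83e-05), and RRP6, of the nuclear exosome, fell by 1.60 ± 0.14 (1.53e-05). Of the centromeric H3 variant gene CSE4 and its partners, 3 genes in all, 2 rose in WT (median 0.46) and 1 in grr1-deficient cells (0.06). Under total counts the WT calls became 8 higher and 4 lower for the modifying enzymes (median 0.14) and 4 higher and 2 lower for the turnover genes (0.16). The 0 h genotype calls of the modifying enzymes became 3 higher and 2 lower (0.05). CSE4 was higher in untreated grr1-deficient than in untreated WT cells (0.56 ± 0.14, adjusted p = 0.0114).

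The genes outside the set whose levels were most like the mean of the 8 core genes, by Pearson r of log2 CPM over the 8 libraries, were GIR2 (r = 0.997), IDI1 (0.997), UBC9 (0.995), DSE1 (0.994) and RFC5 (0.994). Those most like HTZ1 were SRP1 (0.995), CDC14 (0.993) and RIT1 (0.992), and those most like HHO1 were COQ8 (0.971), ADH3 (0.960) and PCT1 (0.935). These likenesses rest on 4 groups of 2 libraries and describe only how log2 levels varied together.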

How the data were processed

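The deposited files give raw read counts per gene from the authors, split into exon, 5′ untranslated, coding and 3′ untranslated positions. They were made with plastid, which, per the file headers, kept reads of 25 to 100 nt and assigned every one to the base 25 nt in from the 5′ end. RPKM values that the authors deposited beside them were not tested, and their countable lengths were used for the levels per length. STAR 2.7.3a, Bowtie2 2.3.5, cutadapt 2.6 and DESeq2 appear in the submitters' processing notes with genome build R64 and no roles. The sources used here do not give strand handling. The authors' deposited tables give log2 fold changes, standard errors, a test score and p-values for 4 h against 0 h in each genotype, used only for comparison.

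Exon counts of all 8 libraries were fitted with edgeR 4.0.16 in R 4.3.3 (quasi-likelihood, robust, TMM, factors 0.742 to 1.28, filterByExpr, a coefficient per group). All were two-sided, p-values were adjusted over 5855 genes by Benjamini-Hochberg, and the threshold was 0.05. The fit was tested on simulated data. Fold changes carry a prior count of 0.125. Their SE was derived as the absolute log2 fold change over the square root of the quasi-likelihood F. Libraries of 0 h or 4 h enter several comparisons, so these share controls. Copy ratios are log2 of (reads + 0.5) over (reads + 0.5), tested by exact permutation over the 70 splits of 4 against 4. Gene depth was 4885844 to 12380049 reads, and reads carry no molecular identifiers. Groups came from sample titles. Named genes were the 10 members, in each of 11 lists (107 genes, all found) the called gene with the largest rise and fall, from which the text gives a part, and the genes most alike by correlation. Members and lists were chosen with earlier results of these data known. Alternatives were median-of-ratios and total-count scaling, no filter, DESeq2 1.42.0, reads of the coding or 3′ untranslated region, the mitochondrial genome left out, the 4 libraries of a comparison alone, a replicate block, a ratio offset of 5, and each library left out. Translation data were not analysed here.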

Additional observations from a re-analysis of the deposited data

Results flagged for a closer look

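The response to 4 h of tunicamycin differed between the strains in 3 of 10 histone genes by the edgeR interaction test, which 37.3% of all genes passed. HTB2 fell by 3.49 ± 0.17 in WT and by 1.91 ± 0.17 in grr1-deficient cells, and the difference of 1.57 had an adjusted p = 0.00130. HTA2, its divergent partner, fell by 3.36 ± 0.17 and by 2.27 ± 0.16, with a difference of 1.09 (adjusted p = 0.00652) that did not pass under total counts (0.139). At 4 h HTB2 was at 19.1 ± 1.35 CPM in WT and 22.1 ± 1.31 in grr1-deficient cells (mean ± SD, n = 2), and HTA2 at 46.1 ± 1.21 and 38.8 ± 5.09 CPM. HHO1 went the other way, with −0.05 ± 0.14 in WT and −0.71 ± 0.14 in grr1-deficient cells, a difference of −0.66 (adjusted p = 0.0329) that did not pass with DESeq2 (0.0612).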

How the results depend on the processing

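Of 910 values for single histone genes under the alternatives, 813 kept their direction and their side of the threshold, 65 lost and 16 gained a call, and 16 changed direction. With reads of the 3′ untranslated region, where 1509 genes and 8 histone genes could be tested, the genes called were 673 (WT), 237 (grr1-deficient), 164 (interaction), 296 (0 h) and 136 (4 h). Histone genes called with them were 6 (WT), 2 (grr1-deficient), 1 (interaction), 6 (0 h) and 1 (4 h). The 4 grr1-deficient libraries alone called 1642 genes, and total counts called 5 histone genes at 0 h. Leaving out each library gave 1272 to 2470 genes for the interaction, and 553 to 2263 genes and 2 to 6 histone genes at 4 h.

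Direction changed under total counts for HHT2 (0.34), HHF2 (0.0165), HTZ1 (0.0446) and HHO1 (0.70) in WT, for HTA1 (−0.56), HHT1 (−0.56), HHT2 (−0.45), HHF1 (−0.23) and HTZ1 (−0.37) in the interaction, for HHO1 (0.26) at 0 h and for HTB2 (−0.0734) at 4 h. It changed for HHO1 in WT without the mitochondrial genome (0.0427). Without replicate 2 of the grr1-deficient strain at both times the HHF2 interaction was 0.0715, HHT1/HHT2 by genotype −0.00936 and HTA2/HTB2 by time 0.0532. Reads of the 3′ region reversed the genotype difference of HTA1/HTA2 (0.286) and HHF1/HHF2 (−0.0953), and coding reads that of HTA1/HTB1 (0.0420). None of the reversed ratios passed a test, and the cause was not tested.

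Values that changed sign when a library was left out are given by their lowest and highest. The genotype differences ran from −0.500 to 0.269 for HTA1/HTA2, −0.654 to 0.0991 for HTB1/HTB2, −0.0637 to 0.419 for HHT1/HHT2, −0.104 to 0.505 for HHF1/HHF2, −0.122 to 0.158 for HTA1/HTB1 and −0.0251 to 0.402 for HHT1/HHF1. The time differences ran from −0.171 to 0.0882 for HTA1/HTB1 and −0.211 to 0.0223 for HTA2/HTB2. The interaction ran from −0.108 to 0.388 for HHT1 and −0.336 to 0.0658 for HHF2, and the WT change of HHO1 from −0.208 to 0.0430.

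With a replicate block the histone genes called were 9 in WT, 9 in grr1-deficient cells, 4 in the interaction, 9 at 0 h and 6 at 4 h, and HTB1 was the one added in grr1-deficient cells (adjusted p = 0.0217) and in the interaction (0.0402). Deviations of same-numbered replicates correlated by 4.47e-05 between times in WT and by 0.796 in grr1-deficient cells, and by 0.00163 to 0.0954 otherwise. The grr1-deficient replicates thus deviated together across the times, as a hint from the data, while the labels do not say what a shared number marks. Over all genes the block called 3880, 2743, 2213, 2922 and 1899 of 5855 in the same order. A block within each genotype called 9 histone genes in WT, 9 in grr1-deficient cells and 4 in the interaction, and 4096, 3042 and 2560 of all genes. Histone genes had 183 reads or more in every library, and the effect of depth was not tested.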

Other observations

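The share of reads in the 5′ untranslated region was higher at 4 h than at 0 h in several histone genes with lower counts at 4 h. For HTA2 it was 7.91% ± 0.351 in untreated and 14.8% ± 1.64 in treated WT (mean ± SD, n = 2), and 9.70% ± 0.312 and 13.4% ± 1.51 in grr1-deficient cells. For HHF1 it was 4.60% ± 1.41 and 8.28% ± 0.813 in WT, and 5.64% ± 0.387 and 7.69% ± 1.01 in grr1-deficient cells. For HHF2 it was 1.70% ± 0.0528 and 4.14% ± 0.161, and 2.999% ± 0.0892 and 4.06% ± 0.243. HTA1 went from 35.4% ± 2.07 to 37.5% ± 0.698 in WT and from 36.5% ± 0.402 to 33.3% ± 2.83 in grr1-deficient cells. HHT2, HTB2 and HTZ1 also had lower shares at 4 h in grr1-deficient cells. HHO1, whose level did not pass in WT, went from 5.16% ± 0.127 to 6.62% ± 0.0595 there. Over all genes the region held 617385 of 12119744 and 573965 of 12083581 reads in untreated WT. It held a larger share in treated WT, 525440 of 8360928 and 566441 of 8871653. In grr1-deficient cells it held 443198 of 8256539 and 301204 of 4885844 at 0 h. The share there was smaller at 4 h, with 407285 of 8155337 and 546874 of 12380049. None of these shares was tested.

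HTB2 reads of the 3′ untranslated region made up 8.56% ± 2.22 and 8.14% ± 0.0943 of its reads in WT at 0 h and 4 h, and 5.26% ± 1.18 and 14.3% ± 2.49 in grr1-deficient cells. In the fit of 3′ reads alone HTB2 was higher in treated grr1-deficient than in treated WT cells by 1.29 (edgeR adjusted p = 0.0217), where all exon reads gave 0.21 (0.367), and its interaction was 3.12 (7.42e-05). These values rest on few reads: 16 and 18 in treated WT, and 23 and 47 in treated grr1-deficient cells. At 0 h there were 131 and 208 in WT, and 32 and 23 in grr1-deficient cells.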
